A study of Mus musculus with 32 samples.

Results

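Podocytes are the epithelial cells that wrap the capillaries of the kidney glomerulus, and Nphs1, Podxl, Synpo, Wt1 and Ptpro are genes known for their products in these cells. The 5 genes were taken by symbol from a table of 27179 genes, where each has 1 row, and all 5 were among the 14864 genes that passed a filter on low values. Podxl lay above the filter in 8 of 8 libraries, Synpo in 8, Ptpro in 7, Wt1 in 4 and Nphs1 in 2, the kidney libraries alone.

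The slit diaphragm, a cell junction between interlocking foot processes, filters the blood plasma together with the glomerular basement membrane beneath it. Nephrin (Nphs1) is the adhesion molecule that spans the slit, podocalyxin (Podxl) is the negatively charged sialomucin of the free surface, synaptopodin (Synpo) binds actin in the foot processes, WT1 is the zinc finger transcription factor that maintains the podocyte state, and PTPRO (GLEPP1) is a receptor tyrosine phosphatase of the foot process membrane. Several are used by other cells too: podocalyxin by vascular endothelium and some neurons, synaptopodin by the dendritic spines of forebrain neurons, PTPRO by neurons during axon growth, and WT1 by the mesothelium that covers the heart and other organs. N6-methyladenosine (m6A) is a methyl mark on adenosines within RNA.

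An m6A antibody was used to pull down RNA of mouse kidney, brain, heart and liver before sequencing (MeRIP-Seq). Each organ was used as formalin-fixed, paraffin-embedded (FFPE) tissue, fixed in 10% formalin, and as flash-frozen tissue, giving 8 libraries: FFPE kidney, FFPE brain, FFPE heart, FFPE liver, frozen kidney, frozen brain, frozen heart and frozen liver. The labels name no strain, age, genotype or treatment of the animals beyond this, nor how many animals a library holds, and the shared description states only that organs were harvested from mice. They list 32 samples in 16 groups of 2 runs, of which 16 are input and not analysed here, and every m6A group has a single column, so 8 in all. A level below is therefore log2 of normalized counts in the pulled-down RNA, and RNA abundance and methylation cannot be told apart. In whole organs, fewer cells of a type and less RNA per cell cannot be told apart either.

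Over all genes, frozen brain had the most counts, 21523379, and FFPE brain the fewest, 9603050. Ribosomal RNA genes took from 50.4% of these counts in FFPE brain to 79.7% in frozen heart. Outside those genes, frozen brain had the most counts, 8004550, and FFPE liver the fewest, 3050241. A count of 3 corresponds to a level between -3.29 in frozen brain and -0.86 in FFPE liver. Organ markers matched the labels: all 8 proximal tubule, 7 collecting duct and 4 loop of Henle markers, and 3 of 4 distal convoluted tubule markers, had their highest mean in kidney, all 14 neuron markers in brain, all 7 cardiomyocyte markers in heart and all 6 hepatocyte markers in liver. The frozen heart library stood apart in its neuronal transcripts, with a summed neuron marker level of 22.8 normalized CPM (counts scaled to library size) in FFPE heart and 63.4 in frozen heart. Differences of the 5 genes that use frozen heart are therefore given with and without it. FFPE and frozen tissue also differed in sex-linked transcripts. Xist had 2693 to 6685 counts in the FFPE libraries and 5 to 26 in the frozen ones. The Y-linked gene Ddx3y had 43 to 125 counts in the FFPE libraries and 294 to 700 in the frozen ones. Preservation and the animals used can therefore not be told apart.

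The first question was where each gene stood across the organs. Nphs1 had levels above 0 in kidney alone, Wt1 and Podxl had their highest means in kidney followed by heart, Synpo was at much the same level in kidney, brain and heart, and Ptpro had its highest mean in brain. Against the mean of brain, heart and liver, 3 of the 5 genes were called higher in kidney and 0 lower, where 16.1% of all genes tested were called higher and 13.5% lower. Nphs1 passed the filter through its kidney libraries alone, and of the 4 genes that passed outside kidney too, 2 were called higher, where 14.0% of all such genes were. The median difference of the 5 genes was log2 2.84, against 0.00 over all genes tested.

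Nphs1 (chromosome 7, 30458207 to 30488623, GRCm38.p6) had a level of 3.49 (219 counts) in FFPE kidney and 1.98 (86 counts) in frozen kidney. In the reference organs it stood at -2.26 and -1.70 in FFPE and frozen brain, at -4.54 and -1.24 in FFPE and frozen heart, and at -2.08 and -1.16 in FFPE and frozen liver, where no library had more than 10 counts. Both kidney libraries lay above all 6 others. The kidney was higher by log2 4.90 ± 0.90 (SE; limma adjusted p = 0.00417), or 29.8-fold, against the mean of the other organs. Nphs1 passed the filter through kidney alone, which fixed the direction of this difference, so its call is no independent support. The size depends on the count added to low values: with 2 counts added the difference was 4.19. Without frozen heart it was 5.45 (adjusted p = 0.00151).

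Wt1 (chromosome 2, 105126529 to 105173614) had 1.91 (73 counts) in FFPE kidney and 0.99 (43 counts) in frozen kidney. Its brain libraries had 0 and 2 counts (FFPE, frozen), its heart libraries stood at 1.07 (24 counts) and 0.66 (20 counts), and its liver libraries had 0 and 8 counts. Kidney and heart overlapped, while brain was at or below 3 counts in both libraries. Against the mean of the other organs kidney was higher by log2 3.35 ± 0.92 (adjusted p = 0.0253). Without frozen heart the difference was 3.05 and the call was lost (adjusted p = 0.0508), and it was likewise lost without FFPE kidney (2.11, adjusted p = 0.430), without frozen kidney (4.59, adjusted p = 0.0681) and without FFPE brain (3.19, adjusted p = 0.0556).

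The heart level of Wt1 stood beside mesothelial transcripts. All 5 mesothelium markers had over 3 counts in both heart libraries, 4 and 5 did in FFPE and frozen kidney, and 0 to 2 did in the libraries of brain and liver. The summed level of these markers was 3.31 and 5.13 normalized CPM in FFPE and frozen heart, 1.77 and 3.77 in FFPE and frozen kidney, and 0.248 to 1.84 in the others. Only 1 of the 5 markers passed the filter, and their counts in the heart libraries ran from 4 to 24. The highest mean was in heart for 3 of them and in kidney for 2. The part of these markers in the Wt1 level was not tested.

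Podxl (chromosome 6, 31519493 to 31563937) had 5.81 (1091 counts) in FFPE kidney and 5.24 (825 counts) in frozen kidney. It had 2.25 and 1.52 in FFPE and frozen brain, 5.58 and 4.45 in FFPE and frozen heart, and 0.42 and 1.86 in FFPE and frozen liver. The FFPE heart level lay between the kidney levels, and brain and liver lay lower than both organs. Kidney was above the other organs' mean by log2 2.84 ± 0.43 (adjusted p = 0.00150), and by 2.64 (adjusted p = 0.00282) without frozen heart. The 10 endothelium markers summed to 114 and 133 normalized CPM in FFPE and frozen kidney, 39.7 and 27.0 in brain, 375 and 317 in heart, and 79.6 and 85.9 in liver. All 10 were over 3 counts in every library, and their part in the Podxl levels was not tested.

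Synpo (chromosome 18, 60593981 to 60660173) had 4.80 (544 counts) in FFPE kidney and 4.30 (431 counts) in frozen kidney, against 4.99 and 4.75 in FFPE and frozen brain, 4.89 and 5.33 in FFPE and frozen heart, and 2.40 and 2.79 in FFPE and frozen liver. Only the liver libraries stood apart, below the other 6. The difference of kidney from the mean of the other organs was log2 0.36 ± 0.21 (adjusted p = 0.247), and 0.45 (adjusted p = 0.158) without frozen heart. Without both heart libraries it was 0.82 and was called (adjusted p = 0.0253).

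Ptpro (chromosome 6, 137252299 to 137464634) had 2.55 (114 counts) in FFPE kidney and 1.84 (78 counts) in frozen kidney. It had 3.38 and 2.48 in FFPE and frozen brain, 0.82 and 1.28 in FFPE and frozen heart, and -0.86 and 0.20 in FFPE and frozen liver. FFPE kidney lay just above frozen brain, and both organs lay above heart and liver. Kidney differed from the mean of the other organs by log2 0.98 ± 0.44 (adjusted p = 0.132), and by 1.09 (adjusted p = 0.126) without frozen heart.

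**Figure D1:**
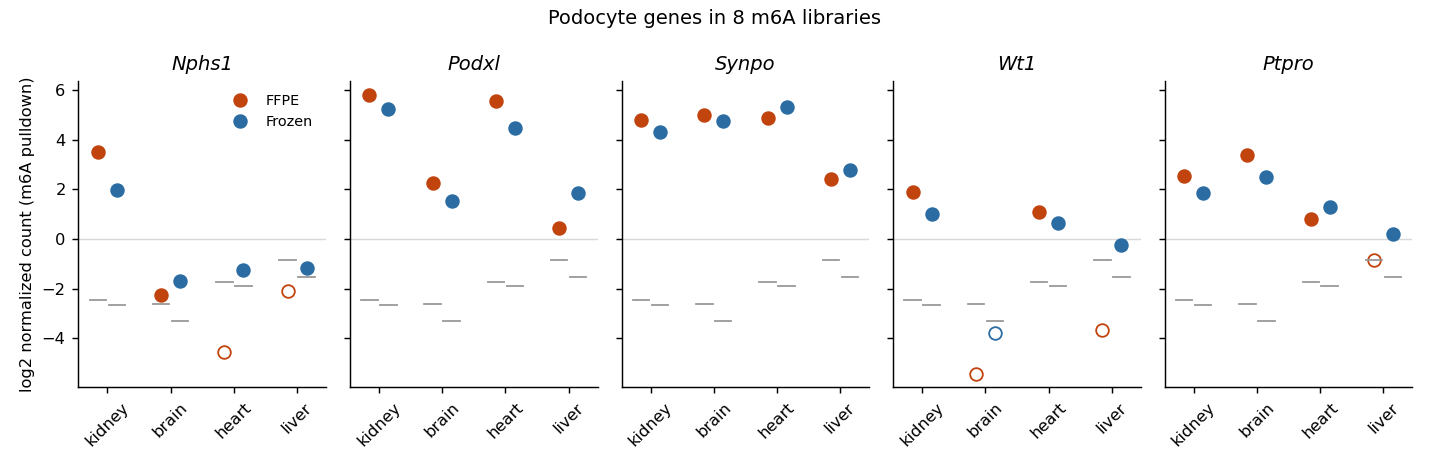
Level (log2 normalized count) of each podocyte gene in the 8 m6A libraries, FFPE in red and frozen in blue, with open circles for 3 counts or fewer and a grey dash at the level of 3 counts in that library. Nphs1 exceeded 0 only in kidney, where it had 3.49 and 1.98, while Synpo lay between 4.30 and 5.33 in kidney, brain and heart.

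The table of RefSeq promoters (GRCm38.p6, 250 bases before to 50 after the start, 32851 promoters) held 2 of the 5 genes. Both are printed, and they belong to the gene with levels above 0 in kidney alone and to the one with its highest mean in brain. Capitals mark matches to motifs searched on both strands: GTGGGAG, a core of sites bound by WT1, GCGGGGGCG, a longer site of the same zinc fingers, CANNTG, the E-box, and TATAAA.
Nphs1, chr7:30459808-30460107, plus strand: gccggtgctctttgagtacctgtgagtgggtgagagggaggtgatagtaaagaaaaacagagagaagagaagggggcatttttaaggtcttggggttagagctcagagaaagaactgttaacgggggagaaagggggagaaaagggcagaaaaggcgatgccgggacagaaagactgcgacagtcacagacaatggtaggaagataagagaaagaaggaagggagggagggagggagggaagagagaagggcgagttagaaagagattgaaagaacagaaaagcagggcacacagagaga
Ptpro, chr6:137252049-137252348, plus strand: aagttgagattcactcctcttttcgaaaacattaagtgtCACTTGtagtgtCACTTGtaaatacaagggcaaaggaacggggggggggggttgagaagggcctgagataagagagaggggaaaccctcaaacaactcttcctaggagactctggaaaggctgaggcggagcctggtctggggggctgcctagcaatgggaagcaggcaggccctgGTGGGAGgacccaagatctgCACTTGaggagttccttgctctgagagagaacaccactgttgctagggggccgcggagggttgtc

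The Nphs1 window starts inside the annotated span of the gene and held none of the 4 motifs. The Ptpro window held 1 GTGGGAG at position -35 from the start and 3 E-boxes at positions -211, -199 and -15, with no overlap between motifs. Over all promoters, 9.73% held GTGGGAG, 2.91% GCGGGGGCG, 72.3% CANNTG and 13.6% TATAAA. The GC content was 49.7% for Nphs1 and 54.7% for Ptpro, with a median of 52.7% over all promoters. The motifs were read from sequence alone, since the libraries measure RNA and not binding.

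The second question was which of these genes kidney shares with brain. In kidney against brain, Nphs1, Podxl and Wt1 were called higher, and Synpo and Ptpro were not called. The 3 of 5 called higher stand against 23% of all genes tested, with 24.6% called lower. Of the 4 genes that passed the filter outside kidney, 2 were called higher, where 21.1% of all such genes were. Nphs1 differed by log2 4.72 ± 1.11 (adjusted p = 0.00753), Podxl by 3.63 ± 0.52 (adjusted p = 0.000593) and Wt1 by 6.05 ± 1.13 (adjusted p = 0.00235). Nphs1 passed the filter through kidney alone, which fixed the direction of its difference from brain, so its call is no independent support. The size for Wt1 depends on the added count, since brain had 0 and 2 counts: with 2 counts added it was 4.75. The Nphs1 call was lost without FFPE brain (adjusted p = 0.0506) and without frozen brain (adjusted p = 0.0613). Both kidney libraries lay above both brain libraries for these 3 genes.

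For Synpo and Ptpro kidney was on the lower side of brain, by log2 -0.32 ± 0.26 (adjusted p = 0.351) for Synpo and -0.73 ± 0.54 (adjusted p = 0.300) for Ptpro. The kidney and brain libraries overlapped for both genes. Both were called higher in brain than in the mean of heart and liver, where 31.5% of all genes tested were called higher and 25% lower. The difference was log2 1.02 ± 0.23 (adjusted p = 0.00467) for Synpo and 2.57 ± 0.47 (adjusted p = 0.00167) for Ptpro. Without frozen heart these were 1.16 (adjusted p = 0.00432) and 2.73 (adjusted p = 0.00306), but without FFPE brain they were 0.84 (adjusted p = 0.0811) and 1.99 (adjusted p = 0.05001), and neither was called.

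Synpo in brain passed against liver and not against heart. Over the 6 pairs of organs, added after the data were seen, Synpo in brain was higher than in liver by log2 2.27 ± 0.26 (adjusted p = 0.000113) and differed from heart by -0.24 ± 0.26 (adjusted p = 0.490). For brain against heart, 26.3% of all genes were called higher and 19.1% lower, and against liver 32.3% and 24.9%. Ptpro in brain was higher than in both, by 3.26 ± 0.54 (adjusted p = 0.000936) against liver and 1.88 ± 0.54 (adjusted p = 0.0203) against heart. Wt1 was lower in brain than in the mean of heart and liver by -4.06 ± 0.98 (adjusted p = 0.00706), with 0 and 2 counts in brain, and by -4.51 (adjusted p = 0.00888) without frozen heart. Podxl was at -1.19 ± 0.45 there (adjusted p = 0.0505). It was called lower in 9 of 19 alternative settings, among them those without frozen heart (-1.48, adjusted p = 0.0284), without FFPE liver (-1.75, adjusted p = 0.000297) and without frozen liver (-0.63, adjusted p = 0.0317), and its sign turned in 2, over which the adjusted p reached 0.481. By pair Podxl differed by -3.13 ± 0.52 against heart (adjusted p = 0.00162) and by 0.75 ± 0.52 against liver (adjusted p = 0.251). Nphs1 was at 0.27 ± 0.96 (adjusted p = 0.825), or 1.10 (adjusted p = 0.305) without frozen heart, with at most 10 counts in any library of brain, heart or liver.

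Neuronal markers were far lower in kidney than in brain. Of 14 neuron markers 14 were called lower in kidney than in brain, and of 8 postsynaptic and spine markers 8 were. The neuron markers summed to 6.31 and 9.31 normalized CPM in FFPE and frozen kidney, and to 1135 and 1522 in FFPE and frozen brain. Snap25, the synaptic fusion protein gene that defines neurons in this list, had 10 and 2 counts in the kidney libraries against 5184 and 12000 in the brain libraries.

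The remaining pairs set the order of the levels. Of the 5 genes, 4 were called higher in kidney than in liver, where 17% of all genes were called higher and 11.5% lower: Podxl by log2 4.38 ± 0.52, Nphs1 by 4.36 ± 1.11, Ptpro by 2.53 ± 0.54 and Synpo by 1.95 ± 0.26 (adjusted p = 0.000435, 0.0181, 0.00823 and 0.000770). Wt1 stood 3.40 ± 1.13 above liver without a call (adjusted p = 0.0531). In kidney against heart 1 of 5 was called, with 16.8% of all genes called higher and 13.4% lower: Nphs1, by 5.63 ± 1.11 (adjusted p = 0.00532). Nphs1 passed the filter through kidney alone, which fixed the direction of its differences from liver and heart. Its calls there are no independent support. Of the other 4 genes 3 were called higher against liver, where 15.4% of all genes that passed outside kidney were, and 0 against heart, where 15.1% were. Podxl (0.51 ± 0.52), Wt1 (0.58 ± 1.13), Ptpro (1.15 ± 0.54) and Synpo (-0.56 ± 0.26) did not pass between kidney and heart (adjusted p = 0.520, 0.746, 0.150 and 0.150). Without frozen heart Nphs1 was at 7.28 (adjusted p = 0.00304), while Podxl was at -0.0790, Wt1 at -0.31, Ptpro at 1.47 and Synpo at -0.28, none of these 4 called.

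Between heart and liver, Podxl was higher in heart by log2 3.87 ± 0.52 (adjusted p = 0.000455) and Synpo by 2.51 ± 0.26 (adjusted p = 0.000105), 2 of 5 genes where 22% of all genes were called higher and 19.5% lower. Without frozen heart these were 4.46 (adjusted p = 0.00128) and 2.23 (adjusted p = 0.00136), and Podxl, Wt1 and Ptpro kept their calls between brain and heart at -3.71, -6.37 and 2.21 (adjusted p = 0.00314, 0.0114 and 0.0412), while Synpo was at 0.0431 (adjusted p = 0.937). By mean level, Nphs1 ran kidney, liver, brain, heart, with the last 3 not differing beyond their spread. Podxl ran kidney, heart, brain, liver, with no call between kidney and heart or between brain and liver. Synpo ran heart, brain, kidney, liver, with a call only for liver against each of the others. Wt1 ran kidney, heart, liver, brain, and Ptpro ran brain, kidney, heart, liver, where no neighbours in that order were called apart. The pairs share libraries, so these calls are not separate evidence.

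**Figure D2:**
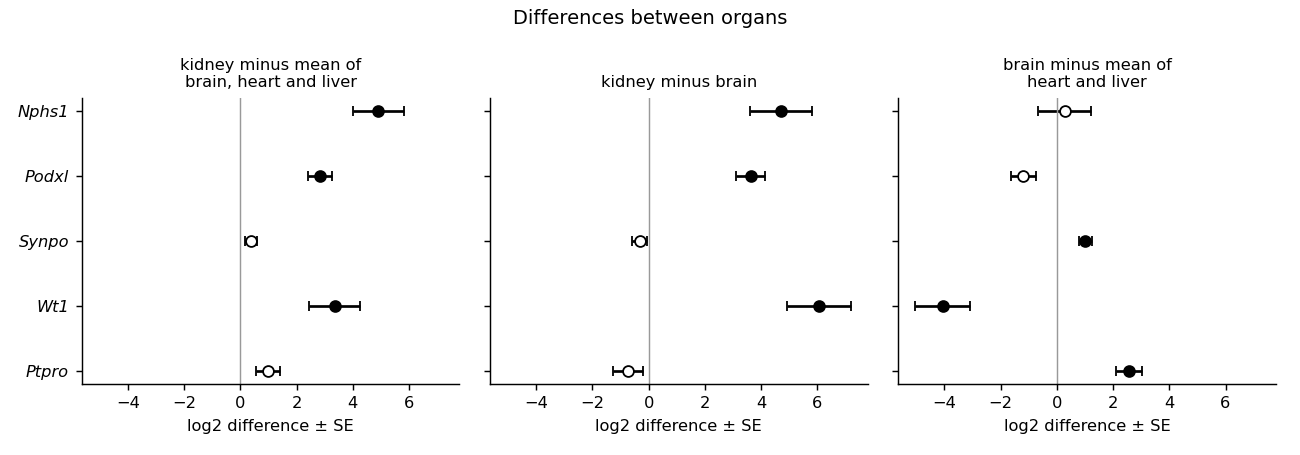
Difference in level (log2, with SE) of each podocyte gene for kidney minus the mean of the other organs, kidney minus brain, and brain minus the mean of heart and liver, with filled points at adjusted p under 0.05. Nphs1, Podxl and Wt1 are filled and above 0 in both kidney panels, and Synpo and Ptpro are filled only in the brain panel.

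Other genes of the podocyte and its basement membrane were read from lists. Of 48 genes in 3 lists, 47 were tested and 29 were called higher in kidney against the other organs' mean, with 3 lower and 15 not called. That is 61.7% of the tested genes, against 16.1% of all genes tested, and their median difference was log2 1.07. Among the 46 that passed the filter without the help of kidney, 28 were called higher, where 14.0% of all such genes were. Of the 48 genes, 22 had their highest mean in kidney, 15 in heart, 7 in brain and 4 in liver. Podocytes share many of these genes with other epithelia of the kidney. When either kidney library was left out, fewer of the list were called higher, and so were fewer of all genes tested. The same held, to a smaller extent, without frozen heart.

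Of 32 slit diaphragm, foot process and surface genes, 18 were called higher and 3 lower. Npnt, the basement membrane ligand nephronectin, was higher in kidney by log2 5.04 ± 0.48 (adjusted p = 0.000150), with levels of 5.81 and 5.09 in FFPE and frozen kidney. Arhgap24, a Rac-inactivating protein gene of the foot process, differed by 3.77 ± 0.36, and Ezr, the gene of the actin linker ezrin, by 3.51 ± 0.37. The surface peptidase gene Enpep differed by 2.36 ± 0.21 and Clic5, whose product binds ezrin complexes, by 2.32 ± 0.33. Enpep had its highest mean in liver (4.90, against 4.64 in kidney) and Clic5 in heart (6.09, against 4.75 in kidney).

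The 3 lower genes were Nebl, a nebulin-family actin binder also built into heart muscle (log2 -2.02 ± 0.63, adjusted p = 0.0421), the formin gene Inf2 (-2.02 ± 0.22) and the phospholipase gene Plce1 (-1.41 ± 0.19). Ddn, the dendrin gene, was at 0.07 ± 0.63, Tjp1, the tight junction scaffold ZO-1, at -0.25 ± 0.14 and Robo2, an axon guidance receptor gene, at 0.46 ± 0.29, without a call. Of the 5 transcription factors tested, 4 were called higher: Foxc2 (3.45 ± 1.01), Tcf21 (2.87 ± 0.66), Foxc1 (2.52 ± 0.34) and Dach1 (1.44 ± 0.29). Tcf21 had 0 counts in both brain libraries, and its mean was 1.30 in kidney, 0.53 in heart and 0.52 in liver. Foxc2 had 0 counts in frozen brain and in both liver libraries, with means of 0.92 in kidney and 0.19 in heart. Dach1 had means of 3.32 in kidney and 3.16 in heart, and Foxc1 3.31 and 2.47.

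Of 10 basement membrane genes and receptors, 7 were called higher and 0 lower. Col4a3 and Col4a4, the collagen IV chains of the mature glomerular membrane, which podocytes make, differed by log2 6.45 ± 0.37 (adjusted p = 1.62e-05) and 5.94 ± 0.41 (adjusted p = 3.56e-05). Col4a3 had levels of 7.48 and 6.90 in FFPE and frozen kidney, and at most 2.67 elsewhere, in frozen heart. The laminin chain gene Lama5 (2.31 ± 0.21), Col4a5 (2.19 ± 0.24) and the integrin gene Itga3 (1.58 ± 0.21) were higher as well. Lama5 and Col4a5 had their highest means in heart (5.82 and 3.93, against 5.46 and 3.78 in kidney). The broadly used receptor genes Dag1 (-0.06 ± 0.15) and Itgb1 (0.38 ± 0.14) were not called.

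**Figure D3:**
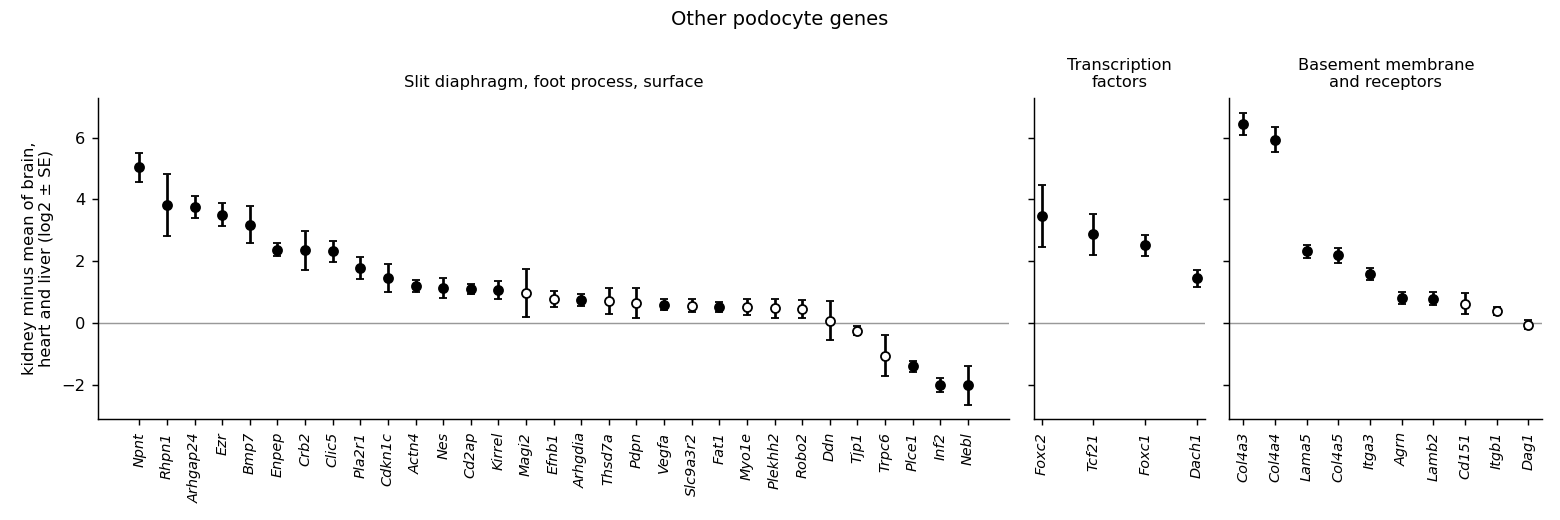
Kidney minus the mean of brain, heart and liver (log2, with SE) for other podocyte and basement membrane genes in 3 lists, ordered by size, with filled points at adjusted p under 0.05. Some listed genes are counted in the text but not shown here, and the order holds for the genes shown only. Among these, Col4a3 and Col4a4 are highest at 6.45 and 5.94, and Nebl, Inf2 and Plce1 are the filled points below 0.

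These lists were set against brain as well. Of the 47 tested genes, 30 (63.8%) were called higher in kidney than in brain and 7 (14.9%) lower, where 23% and 24.6% of all genes were, with a median of log2 1.79 against -0.02 over all genes. The 7 lower genes were Ddn, Nebl, Trpc6, Inf2, Robo2, Thsd7a and Plce1, all from the slit diaphragm and foot process list. When FFPE brain was left out, fewer of the lists were called lower, and so were fewer of all genes tested. Ddn, whose product was found in dendrites as well as podocytes, had levels of 1.99 and 1.79 in FFPE and frozen kidney against 6.79 and 6.92 in FFPE and frozen brain (difference -4.97 ± 0.77, adjusted p = 0.000904). It also had 9 counts in FFPE heart and 116 in frozen heart, where Snap25 had 15 and 115 counts. Trpc6, a calcium channel gene, was at -3.34 ± 0.82 and Robo2 at -1.91 ± 0.36.

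Close relatives of the 5 genes were read in the same way. Of 9 relatives 7 were tested, and against the other organs' mean 0 were called higher in kidney and 3 lower, where 16.1% of all genes were called higher and 13.5% lower. Synpo2, the muscle paralog of synaptopodin, was lower in kidney at log2 -1.07 ± 0.34 (adjusted p = 0.0448), with 2.03 and 1.12 in FFPE and frozen kidney and 5.49 and 5.10 in FFPE and frozen heart. Podxl2 (-2.24 ± 0.69) and Kirrel3, a relative of nephrin's partner Kirrel (-2.39 ± 0.74), were highest in brain and were named after their values were seen. Without frozen heart the calls of Synpo2 (adjusted p = 0.0664) and Kirrel3 (adjusted p = 0.0689) were lost. Ptprb, an endothelial phosphatase gene, was at 0.06 ± 0.15 and the sialomucin gene Cd34 at 0.19 ± 0.31, without a call.

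The genes most like each member in level over the 8 libraries, within log2 2 of its mean, are given by Pearson r across 8 libraries that fall into 4 organs. For Nphs1 they were Oxgr1 (0.974), Slc22a6 (0.971), Slc4a11 (0.967), Bspry (0.966) and Slc5a1 (0.965). Slc22a6 encodes the organic anion transporter of the proximal tubule and Oxgr1 an oxoglutarate receptor, and neither is a podocyte gene by its textbook description. Slc22a6 had 6.51 and 6.46 in FFPE and frozen kidney, and -0.87 or less in the other libraries.

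For Podxl they were Iqgap1 (0.986), Tshz1 (0.985), S1pr3 (0.981), Itga6 (0.981) and Mrc2 (0.977). For Synpo they were Rragd (0.981), Limch1 (0.979), Efnb2 (0.973), Ccdc82 (0.971) and Slc8a1 (0.970). Among these, Slc8a1 encodes the sodium/calcium exchanger of heart muscle and neurons. It had 7.94 and 5.98 in FFPE and frozen kidney, against 7.92 and 7.14 in FFPE and frozen heart. For Wt1 they were Ptgfr (0.981), Kcne1 (0.968), Wnt11 (0.965), Aqp7 (0.965) and Sp110 (0.957). For Ptpro they were Il34 (0.994), Asxl3 (0.983), Klhl18 (0.980), L1cam (0.979) and Kcnt1 (0.975). L1cam, a neuronal adhesion gene, had 3.78 and 3.12 in FFPE and frozen kidney against 4.91 and 4.81 in FFPE and frozen brain. Il34 had 1.58 and 0.81 in FFPE and frozen kidney against 2.21 and 1.72 in FFPE and frozen brain.

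The last question was whether the 5 genes differed between FFPE and frozen tissue. Over the 4 organs 0 of 5 were called and 0 had an unadjusted p under 0.05, where limma called 0.00673% of all genes higher and 0% lower. The difference was log2 0.25 ± 0.37 for Podxl, 0.02 ± 0.38 for Ptpro, -0.02 ± 0.18 for Synpo, -0.82 ± 0.78 for Nphs1 and -0.93 ± 0.80 for Wt1, with adjusted p between 0.551 and 0.978. Without frozen heart these were -0.0462, 0.18, 0.12, 0.0132 and -1.38 in the same order, with 0 called. For Nphs1 and Wt1 these values rest in part on libraries with 0 counts. In the other podocyte lists 0 of 47 were called and 8 had an unadjusted p under 0.05. The share of all genes with such a p is not given here, so these counts cannot be called many or few.

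Within kidney all 5 genes were higher in the FFPE library. With 1 library each there is no test, and the 95% intervals cover counting error only, with 23.3% of 13711 genes having an interval above 0 and 17.2% below. Nphs1 was higher by log2 1.51 (interval of the count ratio 1.15 to 1.89), or 2.85-fold. Wt1 followed with 0.92 (0.37 to 1.51), Ptpro with 0.71 (0.29 to 1.15), Podxl with 0.57 (0.44 to 0.70) and Synpo with 0.50 (0.32 to 0.69). The median over all genes in kidney was 0.02.

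The other organs did not repeat this for every gene. In brain, Podxl (log2 0.73), Synpo (0.24) and Ptpro (0.89) were higher in FFPE with intervals above 0, where 21.1% of genes had such an interval and 28.9% one below. In heart Podxl was higher by 1.12 (0.91 to 1.34) and Synpo differed by -0.44 (-0.64 to -0.24), with 24.1% of genes above 0 and 18.7% below. In liver Podxl had 8 counts in FFPE and 36 in frozen tissue, a difference of -1.44, and Wt1 had 0 and 8 counts. The Wt1 level in frozen liver was 1.53-fold that of 3 counts in FFPE liver, and the counting interval ended at log2 -0.11. In liver 23.1% of genes had an interval above 0 and 17.1% below. The intervals of all other gene and organ pairs included 0.

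**Figure D4:**
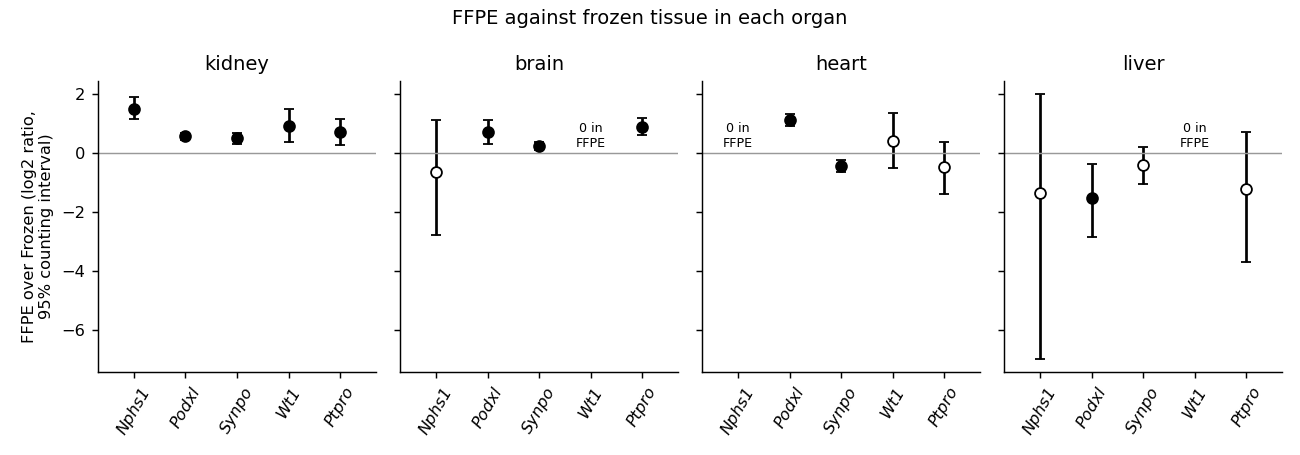
FFPE over frozen count ratio (log2, scaled by library size) of each podocyte gene in each organ, with 95% counting intervals, 1 library each, and filled points where the interval leaves out 0. All 5 points lie above 0 in kidney, from 0.50 to 1.52, and the points of liver lie below 0.

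Other podocyte genes lay on both sides of 0 between the kidney libraries. Of 32 slit diaphragm, foot process and surface genes, 14 had an interval above 0 and 2 below, with a median of log2 0.08 and a range of -0.45 to 0.92. Npnt differed by 0.72, while the transcription factors had a median of 0.25 and the basement membrane list of 0.29. In the other kidney lists the medians were 1.43 for the distal convoluted tubule, 0.87 for the collecting duct, 0.80 for the proximal tubule, 0.38 for mesangial and juxtaglomerular genes, 0.16 for parietal epithelium, -0.06 for glomerular endothelium and -0.58 for the loop of Henle.

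Ren1, the renin gene of the juxtaglomerular cells, had 252 counts in FFPE and 76 in frozen kidney (log2 1.89), and Umod, the uromodulin gene of the thick ascending limb, had 7551 and 20940 (-1.30). These shifts between parts of the nephron stood beside those of the podocyte genes, together with Xist at 6685 and 26 counts in FFPE and frozen kidney. Their part in the podocyte differences was not tested.

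**Figure D5:**
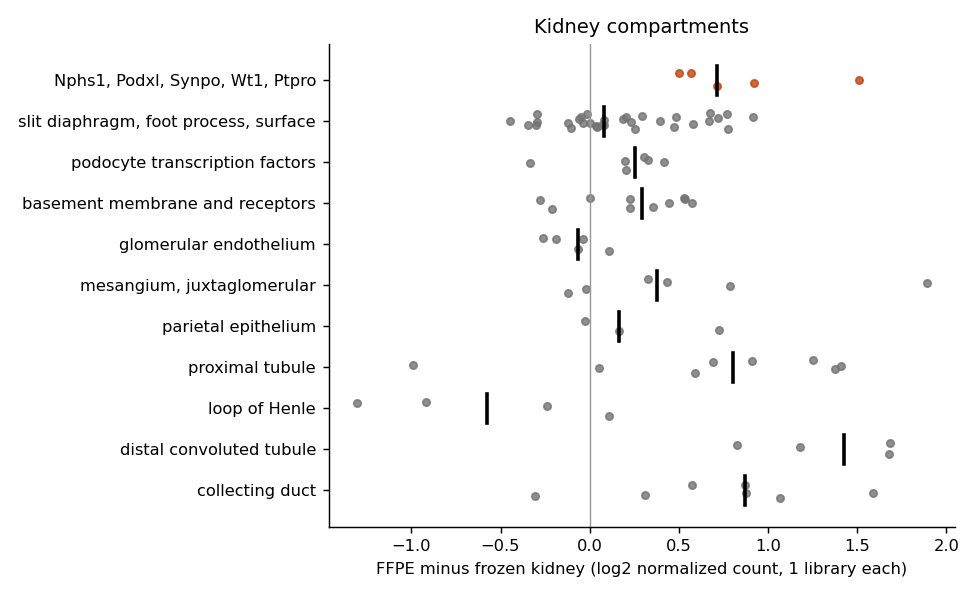
FFPE minus frozen kidney (log2 normalized count, 1 library each) for the 5 podocyte genes in red and for other kidney gene lists in grey, each point a gene with at least 10 counts over both libraries and each bar the median of its list. The 5 genes have a median of 0.71, against 0.08 for the slit diaphragm list, 1.43 for the distal convoluted tubule and -0.58 for the loop of Henle.

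Reads of overlapping genes could be counted with either, since no source used here states whether counting used strand. The antisense gene Nphs1os, which lies in Nphs1, had 0 counts in both kidney libraries and at most 6 elsewhere. Wt1os, antisense to Wt1, had 5 and 6 counts in FFPE and frozen kidney, 0 and 5 in heart and 0 and 9 in liver, where Wt1 itself had 0 and 8. Kirrel2, the neighbour of Nphs1 and a relative of it, had 2 and 6 counts in FFPE and frozen kidney and 15 and 57 in FFPE and frozen brain.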

How the data were processed

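Per the submitters' processing notes, reads were handled with HISAT2, featureCounts and limma against mm10, and the deposited table holds log2 normalized counts for 8 libraries. From the values, the authors used log2 of CPM with 0.5 added to each count and a scaled library size: all values (100%) gave whole counts within 0.001. The sources used here do not say how the scaling was chosen. The table's name, not its columns, gives the antibody as m6A. In another table, 8 columns could not be tied to any sample in the labels and were left out.

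Genes with log2 above 0 in at least 2 libraries were tested (14864). The tests planned assumed replicate runs. With 1 column per group, limma was fitted with a term for organ and one for preservation (eBayes with trend, 3 residual degrees of freedom), and genes were called at an adjusted p (Benjamini-Hochberg) under 0.05 over all genes tested. The spread behind these p-values is how far the difference between FFPE and frozen tissue varied from organ to organ, moderated over genes. It does not measure the spread between animals, since preservation and the animals used cannot be told apart. Differences within 1 organ have exact 95% counting intervals. Reads carry no molecular identifiers and may be copies of one another, so intervals and floors cover counting error only.

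All 5 podocyte genes were named. From each other list the rule took up to 6 called genes with the largest difference and a mean log2 of at least 1, and up to 3 with the smallest difference that were not called. Other genes were named after their values were seen, and 2 listed genes are counted but not reported here by name. The genes and lists were chosen with earlier results of these data known. Of the identifiers, 25275 matched the reference table (GRCm38.p6). No transcript lengths were used, so levels are compared within a gene only. Alternatives were other scalings, filters, added counts, weights and leaving out libraries. R 4.3.3, limma 3.58.1, Python 3.11.15, pandas 2.3.3, numpy 2.4.6 and matplotlib 3.10.9 were used.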

Additional observations from a re-analysis of the deposited data

Results flagged for a closer look

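Differences between FFPE and frozen tissue ran in opposite directions in different organs for 3 of the podocyte genes, each with a counting interval off 0. Among all genes with at least 10 counts, 21.1% to 24.1% had an interval above 0 in a given organ, and 17.1% to 28.9% below. The share of all genes with intervals on both sides is not given here, so these 3 cannot be called many or few. With 1 library per organ and preservation, the difference between organs was not tested. Podxl was at log2 0.57 in kidney, 0.73 in brain and 1.12 in heart, higher in FFPE tissue, and at -1.44 in liver, where it had 8 counts in FFPE and 36 in frozen tissue. Synpo was at 0.50 in kidney and 0.24 in brain, and at -0.44 in heart. Wt1 was at 0.92 in kidney and at -3.42 in liver, where FFPE had 0 counts and frozen tissue 8, so that the size depends on the count added.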

How the results depend on the processing

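No paired analysis was possible because the table has 1 column per group and its columns carry no run number. Over 19 alternative settings, Podxl kept its call in kidney against the mean of the other organs (log2 2.46 to 4.01). Nphs1 kept it in the 16 settings it entered (4.19 to 5.45), since it failed the stricter filter and the fits without a kidney library. Wt1 lost it in 6 of 18, among them quantile normalization (adjusted p = 0.0519) and the fit without trend (adjusted p = 0.0578). The count of podocyte genes called higher there, 3, was 5 when libraries were scaled by counts outside the ribosomal genes, 1 with the stricter filter, and 1 to 4 with a library left out, being 1 without FFPE kidney and without frozen kidney. In kidney against brain it was 1 with the stricter filter, and 2 to 3 with a library left out. In brain against heart and liver the count called lower, 1, was 2 with quantile normalization, median centring, no filter, 2 counts added, quality weights and voom weights, and 0 with the stricter filter and without both heart libraries. With a library left out it was 0 to 2, and the count called higher was 0 to 2, with 0 without FFPE brain. FFPE against frozen tissue gave 0 calls among the 5 genes in every setting. In kidney against the other organs, 2399 of 14864 genes tested were called higher in the main fit. The number was 4326 with scaling by counts outside the ribosomal genes, and 1791 of 10247 with the stricter filter. Fewer of all genes were also called higher when FFPE kidney or frozen kidney was left out.

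Values that changed sign were all uncalled. In kidney against brain, Synpo ran from -0.67 to 0.0291 with a library left out, the positive value being without frozen kidney. In brain against heart and liver, Nphs1 was -0.0451 with median centring, -0.36 with 2 counts added, -0.36 without both heart libraries and, with a library left out, ran from -0.56 (without FFPE heart) to 1.10, and Podxl was 0.38 with total count scaling and 0.75 without both heart libraries. In FFPE against frozen tissue, Ptpro was -0.0200 with median centring, -0.0880 with total count scaling, -0.13 with scaling outside the ribosomal genes, -0.27 without a brain and -0.21 without a kidney library, and up to 0.38 without a liver library. Synpo was 0.16 with quality weights, 0.10 with voom weights, 0.12 without one or both heart libraries and 0.10 without a liver library, or -0.19 to 0.12 over all libraries left out in turn. Nphs1 was 0.85 with voom weights and 0.0132 without one or both heart libraries, with -0.90 the lowest when a library was left out. Wt1 was 0.10 with voom weights, and Podxl was -0.0462 without one or both heart libraries and up to 0.81 without a liver library. The causes were not tested.

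Counts over all genes depended on scaling. In kidney against the other organs 2399 were called higher and 2011 lower, 54.4% of calls higher, against 73.6% with total count scaling and 77.6% with scaling outside the ribosomal genes, where the median of all genes moved to log2 0.52 and 0.44. In brain against heart and liver the 55.8% became 88.6% and 76.3%, with medians of 1.70 and 0.84, or 44.2% with median centring and 35.8% without a filter. In kidney against brain the 48.3% became 34.5% with total count scaling. Over all settings the counts were 768 to 4326 higher and 667 to 2930 lower in kidney against the other organs, 1950 to 4047 and 1997 to 4363 against brain, 2613 to 9530 and 1226 to 8798 in brain against heart and liver, and 0 to 269 and 0 to 182 in FFPE against frozen tissue. Depth limits Nphs1 and Wt1 outside kidney, where several libraries had 3 counts or fewer.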
